A study of Mus musculus with 7 samples.

Results

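The core circadian clock genes described here are Arntl, Clock, Npas2, Per1, Per2, Per3, Cry1, Cry2, Dbp and Tef, measured in quadriceps muscle of WT and AR113Q knock-in mice. They were found by name among the non-control probes of the arrays, through the current symbol of each probe's RefSeq accession or, where that was missing, the name in the scanner files. The 10 genes had 12 probes among 39429, with 2 probes each for Per1 and Dbp. Of these, 10 probes of 8 genes could be told from background on 3 or more of the 7 arrays and were tested, among 20991 probes tested in all. Npas2 and Cry1 were not well above background on any array.

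The clock of each cell is a loop of transcription and its delayed repression. ARNTL (also called BMAL1) pairs with CLOCK or its relative NPAS2 and activates genes that carry E-boxes, among them the Per and Cry genes, whose proteins return to the nucleus and repress ARNTL and CLOCK. A further loop sets Arntl itself through RORE elements (RRE), which ROR proteins activate and REV-ERB proteins (Nr1d1, Nr1d2) repress, and the PAR bZIP factors DBP, TEF and HLF oppose NFIL3 at D-boxes. In skeletal muscle this loop is known to time metabolic genes and the myogenic gene Myod1, and transcripts of Dbp and Arntl are at opposite phases of the day.

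Single-dye Agilent expression arrays were hybridized with quadriceps RNA, 1 array per mouse, from 4 WT and 3 AR113Q male mice of the C57BL/6 strain. The AR113Q mice carry a knock-in allele with an expanded polyglutamine tract, a model of spinal and bulbar muscular atrophy. Being a knock-in, the allele is carried by all cells of the animal. The labels give an age of 3 months, a stage at which the study describes these mice as presymptomatic. The controls are WT by their labels, though the text of the study names a knock-in line as control. Mice were kept on a light/dark cycle, and the time of day at which muscle was collected was not given in the sources used here, so its part in the values of clock genes was not tested.

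On each array 47.6% to 55.8% of the probes were well above background, with 0 saturated spots. The arrays lay on 5 slides, and only slide 2 carried a WT array (replicate 2) beside an AR113Q array (replicate 1). All 5 skeletal muscle fiber markers (Ckm, Acta1, Myh4, Mb and Tnnt3) were well above background. The log2 of their summed signal was 19.17 to 19.39 in WT and 18.59 to 19.34 in AR113Q muscle. All log2 signals below are of background-subtracted intensities after quantile normalization, and their precision is limited by how few arrays there are. In muscle homogenates, fewer cells of a type and less RNA per cell cannot be told apart.

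The start regions of 6 genes are printed here, of which Nfil3 is not among the 10 clock genes. They were chosen because each holds an element of the loop described above, and because the comparisons turn on their expression values. The sequences are those of RefSeq on GRCm38.p6, 5′ to 3′ on the strand of the gene, with the searched elements in capitals. For Per1 (chr11:69098699-69098948), Per3 (chr4:151044666-151044915), Cry2 (chr2:92434070-92434319), Tef (chr15:81811164-81811413) and Nfil3 (chr13:52981040-52981289) they are the 250 bases before the annotated start. For Arntl (chr7:113207531-113207560) they are 30 bases after the start. Arntl, Per1 and Tef have 2 annotated starts each, of which 1 is shown.
Arntl: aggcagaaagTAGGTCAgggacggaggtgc
Nfil3: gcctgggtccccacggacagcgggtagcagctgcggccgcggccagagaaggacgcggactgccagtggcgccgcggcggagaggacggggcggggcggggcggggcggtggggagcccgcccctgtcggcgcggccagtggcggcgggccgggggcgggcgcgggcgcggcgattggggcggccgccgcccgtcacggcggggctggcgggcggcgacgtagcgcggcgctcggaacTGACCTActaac
Per1: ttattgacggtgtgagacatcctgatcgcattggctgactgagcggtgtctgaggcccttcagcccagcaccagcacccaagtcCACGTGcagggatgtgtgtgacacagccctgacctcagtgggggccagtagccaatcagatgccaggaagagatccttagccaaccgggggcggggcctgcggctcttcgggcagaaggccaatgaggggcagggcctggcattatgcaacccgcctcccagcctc
Cry2: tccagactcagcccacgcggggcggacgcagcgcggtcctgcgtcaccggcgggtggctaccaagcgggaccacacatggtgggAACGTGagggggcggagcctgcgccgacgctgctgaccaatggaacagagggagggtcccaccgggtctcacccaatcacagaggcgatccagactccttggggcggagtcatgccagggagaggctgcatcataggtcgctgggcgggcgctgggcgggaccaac
Per3: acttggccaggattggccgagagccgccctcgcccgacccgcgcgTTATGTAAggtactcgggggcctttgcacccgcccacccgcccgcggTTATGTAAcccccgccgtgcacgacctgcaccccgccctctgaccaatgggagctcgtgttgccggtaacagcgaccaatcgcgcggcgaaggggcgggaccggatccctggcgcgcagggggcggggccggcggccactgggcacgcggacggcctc
Tef: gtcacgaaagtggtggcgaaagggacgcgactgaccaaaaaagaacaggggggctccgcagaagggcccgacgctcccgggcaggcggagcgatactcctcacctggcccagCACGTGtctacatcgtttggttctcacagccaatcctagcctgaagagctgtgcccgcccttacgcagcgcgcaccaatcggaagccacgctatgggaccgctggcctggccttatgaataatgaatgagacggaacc
The letters searched, on both strands, were CACGTG for the E-box, CACGTT for the E-box variant, TTATGTAA or TTACGTAA for the D-box, and TAGGTCA or TGGGTCA for the RRE; no 2 of them overlap in these windows. Over windows from 250 bases before to 50 bases after the start, 9 of the 10 clock genes had an entry, and Per2 was not among them. The E-box was found in 3 of these 9 genes (Per1, Cry1 and Tef), the variant in 2 (Cry1 and Cry2), the D-box in Per3 and the RRE in Arntl. A gene was counted if any of its windows held the letters, and some genes have more than 1 window. Across all 32851 windows of the same length, 7.15% held the E-box, 4.68% the variant, 1.06% the D-box and 6.45% the RRE. These shares are per window, so the counts per gene are not on the same scale. The 2 D-boxes of Per3 begin 205 and 158 bases before its start, and the RRE of Nfil3 begins 12 bases before its own. The window of Dbp held none of these letters, which says nothing about elements elsewhere in the gene.

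Of the 8 clock genes tested, 3 rose and 1 fell in AR113Q muscle. Called here are genes with an adjusted p up to 0.05 and a log2 fold change of 1 or more in either direction in the limma fit over all probes. By the same rule 24.3% of all 16577 genes tested were called, 11.2% higher and 13.1% lower in AR113Q, as were 24.8% of all probes and 5 of the 10 clock gene probes. The share of all genes called depended on the processing, at 10.6% with normexp background correction, 9.16% with the authors' normalized values, 11.5% with unsubtracted mean spot intensities and 13.0% with no filter on dim probes, where 4, 4, 4 and 3 clock genes were called in that order. The adjusted p alone was passed by 43.5% of the genes and by 5 of the 8 clock genes. Cry2, Arntl and Per1 rose, with mean signals 8.12-fold, 5.27-fold and 3.05-fold those of WT, and Dbp fell, its mean signal in WT being 15.2-fold that in AR113Q. The values of the genotypes did not overlap for these 4 genes and for Clock, which makes 5 of 8, beside 49.3% of all genes tested. The clock genes had a median log2 fold change of 0.60, and all genes one of -0.01. A fit with slide as a fixed effect, in which only the same-slide pair compares the genotypes, called none of the clock genes and 0 of all genes.

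**Figure D1:**
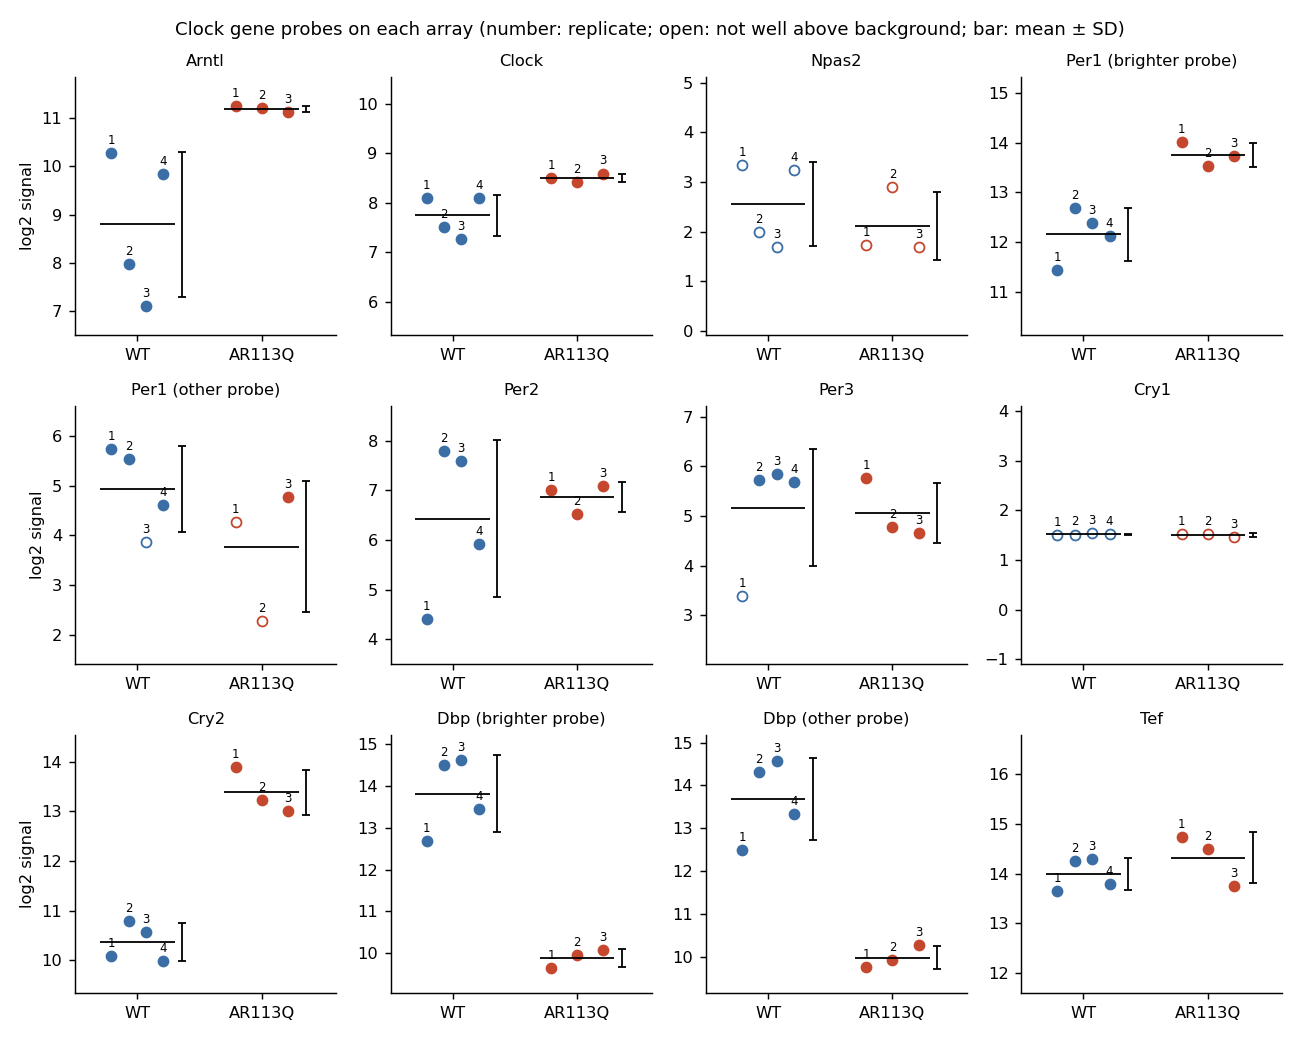
Log2 signal (vertical axis) of the 12 clock gene probes on the 4 WT arrays (blue) and the 3 AR113Q arrays (red), with the replicate number above each point, open circles where the spot was not well above background, and the mean and SD as a line and a bar. Each panel has its own range. The AR113Q points lie above all WT points for Arntl, Clock, Cry2 and the brighter Per1 probe, and below them for both Dbp probes.

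Arntl encodes the partner without which the positive limb cannot bind DNA. Its log2 signal was 10.27, 7.97, 7.10 and 9.85 in WT replicates 1 to 4 and 11.26, 11.21 and 11.13 in AR113Q replicates 1 to 3, at a probe on chromosome 7 of mm9 (120457261 to 120457320). The WT arrays thus spanned 3.17 on the log2 scale, whereas the AR113Q arrays spanned 0.13 and lay above every WT array. The means were 8.80 ± 1.51 (SD, n = 4) and 11.20 ± 0.06 (SD, n = 3). The log2 fold change was 2.40 (standard error, SE, 0.71, 95% confidence interval 0.77 to 4.03, limma adjusted p = 0.0256). The call was lost without WT replicate 2 (limma adjusted p = 0.0631) or without any of the AR113Q arrays (replicate 1, 0.0722; replicate 2, 0.0668; replicate 3, 0.0559), while the log2 fold change stayed between 1.83 and 2.90. It was also lost when no filter on dim probes was set (limma adjusted p = 0.0742).

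Clock encodes the histone acetyltransferase that pairs with ARNTL. Its log2 signal was 8.10, 7.51, 7.28 and 8.10 on the WT arrays and 8.50, 8.43 and 8.59 on the AR113Q arrays. As for Arntl, WT replicates 1 and 4 were the higher WT arrays and the 3 AR113Q arrays lay above them without overlap. The log2 fold change of 0.76 (SE 0.24, 95% confidence interval 0.22 to 1.298, limma adjusted p = 0.0308) was under the fold change threshold. With each array left out in turn its adjusted p lay between 0.0268 and 0.0756. Npas2, which can take the place of Clock, had log2 values from 1.69 to 3.34, all not well above background, and was not tested.

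Per1 encodes a repressor of the negative limb that is also known as an early response gene of the clock. Its brighter probe (mm9 chromosome 11, 68923364 to 68923423) gave a log2 signal of 11.43, 12.68, 12.39 and 12.12 on the WT arrays and 14.02, 13.54 and 13.73 on the AR113Q arrays. The lowest AR113Q array was above the highest WT array. The log2 fold change was 1.61 (SE 0.29, 95% confidence interval 0.94 to 2.28, limma adjusted p = 0.00324). The other Per1 probe, named by the scanner files from a cDNA clone, lies elsewhere on chromosome 11 (68919895 to 68919954) and was dim. It was well above background on 3 of 4 WT arrays and 1 of 3 AR113Q arrays, and its log2 values were 5.73, 5.54, 3.87 and 4.61 in WT and 4.27, 2.28 and 4.76 in AR113Q. Its log2 fold change of -1.16 (SE 0.65, limma adjusted p = 0.180) had the opposite sign, and the mean over both probes gave 0.22 with no call (limma adjusted p = 0.645).

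The other Period genes did not pass the test. Per2, which encodes a core repressor beside PER1, had a log2 signal of 4.41, 7.79, 7.58 and 5.92 in WT and 7.0, 6.53 and 7.09 in AR113Q. The AR113Q arrays lay inside a WT range of 3.38 on the log2 scale, and the log2 fold change was 0.45 (SE 0.75, 95% confidence interval -1.27 to 2.17, limma adjusted p = 0.655). Per3, a Period gene that is not needed for the rhythm itself, had a log2 signal of 3.40, 5.73, 5.84 and 5.69 in WT and 5.76, 4.78 and 4.65 in AR113Q. WT replicate 1 was not well above background at this probe. The log2 fold change of Per3 was -0.10 (SE 0.60, 95% confidence interval -1.48 to 1.29, limma adjusted p = 0.907). These intervals reach past a log2 change of 1 on both sides, so that a change of that size was not excluded for either gene.

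Cry2 encodes a cryptochrome, a repressor that joins PER proteins and is known to bind nuclear receptors as well. Its log2 signal was 10.09, 10.79, 10.56 and 9.99 in WT and 13.89, 13.23 and 13.01 in AR113Q, at a probe on chromosome 2 of mm9 (92243807 to 92243866). Each genotype kept within 0.88 on the log2 scale and the lowest AR113Q array was more than 2 log2 units above the highest WT array. The means were 10.36 ± 0.38 (SD, n = 4) and 13.38 ± 0.46 (SD, n = 3), and the log2 fold change was 3.02 (SE 0.28, 95% confidence interval 2.38 to 3.66, limma adjusted p = 0.000213). Cry1, the other cryptochrome and the stronger repressor of the pair, had log2 values of 1.47 to 1.54 on all arrays, not well above background, and was not tested.

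Dbp encodes a transcription factor that is a direct E-box target of ARNTL and CLOCK and carries the rhythm to output genes. Its brighter probe (mm9 chromosome 7, 52965461 to 52965520) gave a log2 signal of 12.68, 14.50, 14.62 and 13.45 in WT and 9.65, 9.95 and 10.07 in AR113Q. The means were 13.81 ± 0.92 (SD, n = 4) and 9.89 ± 0.22 (SD, n = 3), and the log2 fold change was -3.92 (SE 0.45, 95% confidence interval -4.96 to -2.89, limma adjusted p = 0.000475). The other Dbp probe (52965322 to 52965381) gave 12.49, 14.31, 14.58 and 13.33 in WT and 9.75, 9.91 and 10.28 in AR113Q, with a log2 fold change of -3.70 (SE 0.47, limma adjusted p = 0.000718). On both probes the WT arrays came in the same order and all AR113Q arrays lay below them. The difference between the means was larger than the range of 1.94 on the log2 scale that the brighter probe had among WT arrays.

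Tef, a PAR bZIP factor of the same family as Dbp, did not pass the test. Its log2 signal was 13.66, 14.26, 14.29 and 13.79 in WT and 14.73, 14.49 and 13.74 in AR113Q. The genotypes overlapped, and the log2 fold change was 0.32 (SE 0.28, 95% confidence interval -0.31 to 0.96, limma adjusted p = 0.373). The interval of Tef lies above that of Dbp without overlap, but the difference between the genes was not tested.

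The rest of the pathway was read from 30 other clock genes in 3 groups, of which 28 were tested. In AR113Q muscle 4 of them rose and 6 fell, which is 35.7% of the 28, beside the 24.3% of all genes. Among the 10 tested partners in the loop, Nfil3, the repressor at D-boxes, rose, and the E-box repressors Bhlhe40 and Bhlhe41 (also called DEC1 and DEC2) and the Arntl relative Arntl2 fell. Nfil3 had a log2 signal of 11.11, 10.53, 10.31 and 10.97 in WT and 12.19, 11.95 and 12.70 in AR113Q (log2 fold change 1.55, limma adjusted p = 0.00230). The log2 fold changes were -1.60 for Bhlhe40, -1.67 for Bhlhe41 and -1.12 for Arntl2. The probes of Bhlhe41 and Arntl2 are dimmer, and under the authors' own normalized values their log2 fold changes of -0.49 and -0.44 were short of the fold change threshold.

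The REV-ERB genes, which repress Arntl, did not pass the test. Nr1d1 had a log2 signal of 10.60, 8.81, 9.05 and 10.65 in WT and 10.44, 10.59 and 11.37 in AR113Q, with overlap (log2 fold change 1.02, standard error 0.51, limma adjusted p = 0.136). Nr1d2 had 9.42, 9.79, 10.32 and 9.502 in WT and 9.98, 9.43 and 10.05 in AR113Q (log2 fold change 0.06, standard error 0.26, limma adjusted p = 0.870). The median log2 fold change of the 10 partners was 0.06.

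Among 11 tested genes that act on the turnover or activity of PER and CRY proteins, 2 rose and 1 fell. Of all genes 11.2% rose and 13.1% fell. The median log2 fold change of the 11 was 0.36. Csnk1d, the casein kinase that marks PER proteins for decay, rose by a log2 fold change of 1.20 (SE 0.22, limma adjusted p = 0.00323). Prkaa2, the catalytic subunit of AMPK that predominates in muscle and phosphorylates cryptochromes, fell, at -1.34 on the log2 scale (limma adjusted p = 0.000859). The call of Csnk1d was lost when its probes were averaged, as its log2 fold change of 0.994 was then short of the threshold.

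Among 7 output genes of the muscle clock, 1 rose and 2 fell, beside 11.2% and 13.1% of all genes. Their median log2 fold change was -0.36. Myod1, the myogenic factor known as a target of ARNTL and CLOCK, had a log2 signal of 8.95, 7.84, 8.74 and 8.79 in WT and 4.79, 4.43 and 4.57 in AR113Q. Its log2 fold change was -3.98 (SE 0.27, limma adjusted p = 8.58e-05), and -1.24 under the authors' own normalized values. Usp2, a ubiquitin protease gene that is rhythmic in many tissues, fell, at -1.51 on the log2 scale (limma adjusted p = 0.00816). Pdk4, the kinase that restrains glucose oxidation, rose by 1.97 (limma adjusted p = 0.00183).

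**Figure D2:**
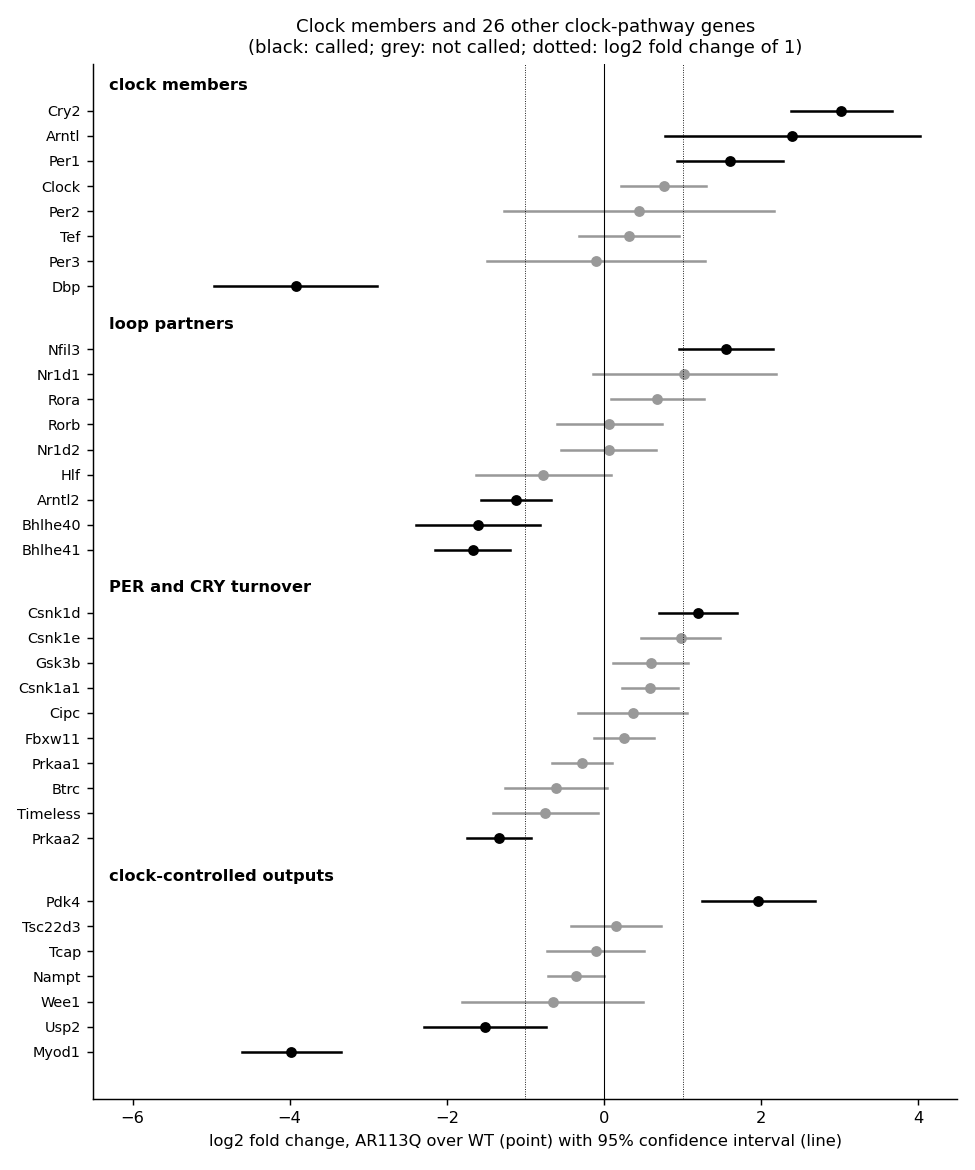
Log2 fold change of AR113Q over WT (horizontal axis) with its 95% confidence interval for the 8 tested clock genes and 26 of the 28 tested genes of the other groups, in black where called and in grey where not, with dotted lines at a log2 fold change of 1 in either direction. Dbp (-3.92) and Myod1 (-3.98) lie farthest to the left and Cry2 (3.02) farthest to the right, while the intervals of Per2, Per3, Tef and Nr1d2 cross 0.

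The WT mice differed among themselves in these genes, and the order of the arrays was shared by some of them. Dbp was highest in WT replicate 3, followed by replicates 2, 4 and 1. Of the 6 pairs of WT arrays, all 6 were ordered as in Dbp for Tef, Per3, Nr1d2 and Hlf, and 5 for Per1 and Per2. For Arntl, Clock and Nfil3 0 of the 6 pairs were, so that these genes were lowest in WT replicate 3 and highest in WT replicate 1. Hlf was named after its values were seen. These are orders of 4 arrays, given as a description. Among the 35 clock genes and other clock-pathway genes tested besides Dbp, 4 had all pairs in the order of Dbp and 4 had none. Fbxw11 was the remaining gene with none. Over 16561 genes 4.25% had all and 4.6% had none.

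Set against this WT order, the place of the AR113Q values differed between genes. The WT array with the highest Arntl, replicate 1, was also the one with the lowest Dbp, Tef, Per1, Per2 and Per3. In AR113Q muscle Arntl, Clock and Nfil3 were above their highest WT values and Dbp was below its lowest, as at that end of the WT order. Per2 and Nr1d2 lay within their WT ranges, Tef lay within or above its own, and Per1 was above its highest WT value. For Per3, AR113Q replicates 2 and 3 lay within the WT range through WT replicate 1 alone, and without that array the log2 fold change was -0.69. Hlf had 7.27, 7.35 and 6.75 in AR113Q, beside 7.05 to 8.60 in WT, and did not pass the test (log2 fold change -0.77, limma adjusted p = 0.128). In the same-slide pair the log2 differences were 3.28 for Arntl, 3.1 for Cry2, 1.34 for Per1 and -4.85 for the brighter Dbp probe. The signs for these called genes follow from the lack of overlap between genotypes, so the pair adds nothing on their direction. Log2 differences in this pair were -0.79 for Per2, 0.03 for Per3 and 0.47 for Tef.

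**Figure D3:**
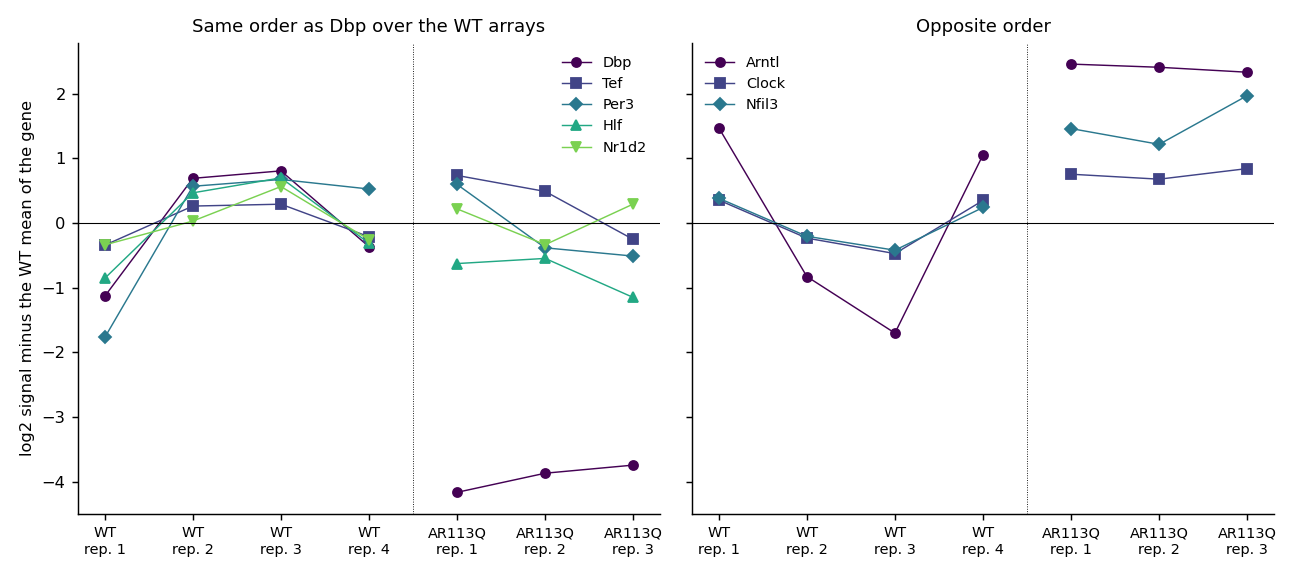
Log2 signal of each gene minus its mean over the WT arrays (vertical axis) on the 4 WT and the 3 AR113Q arrays (horizontal axis), for genes whose WT arrays were ordered as in Dbp (left) and in the opposite order (right). Lines join the arrays of a genotype for reading only. The order left of the dotted line was used to choose the genes of each panel. Right of the line Dbp lies near -4 while Tef and Nr1d2 stay within 1 of 0.

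The spread within a genotype differed between the clock genes. The SD of Arntl over the WT arrays was larger than that of 99.6% of the 20991 probes tested, and the share was 99.7% for Per2 and 97.2% for the brighter Dbp probe. It was 89.4% for the brighter Per1 probe, 82.4% for Clock, 79.4% for Cry2 and 72.6% for Tef. Spread depends on signal level, so the shares were also taken among probes in the same decile of mean signal. They were then 99.9% for Arntl, 99.6% for Per2, 99.3% for the brighter Dbp probe and 98.6% for the brighter Per1 probe. For Cry2, Tef and Clock they were 94.4%, 94.2% and 91.4%. The share of all probes for Per3 was 98.8%, but it rested on WT replicate 1, which was not well above background. Without that array the WT SD of Per3 was 0.076, under the AR113Q SD of 0.61. Over the AR113Q arrays the SD of Arntl (0.06) was larger than that of 3.48% of the probes and the SD of Clock (0.08) than that of 5.42%. Over all probes tested the median SD was 0.21 in WT and 0.32 in AR113Q, so that probes in general varied more among AR113Q mice. Arntl, Clock, Per2, both Dbp probes and the brighter Per1 probe had a smaller SD in AR113Q than in WT, also with any 1 WT array left out. The difference in spread between the genotypes was not tested.

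**Figure D4:**
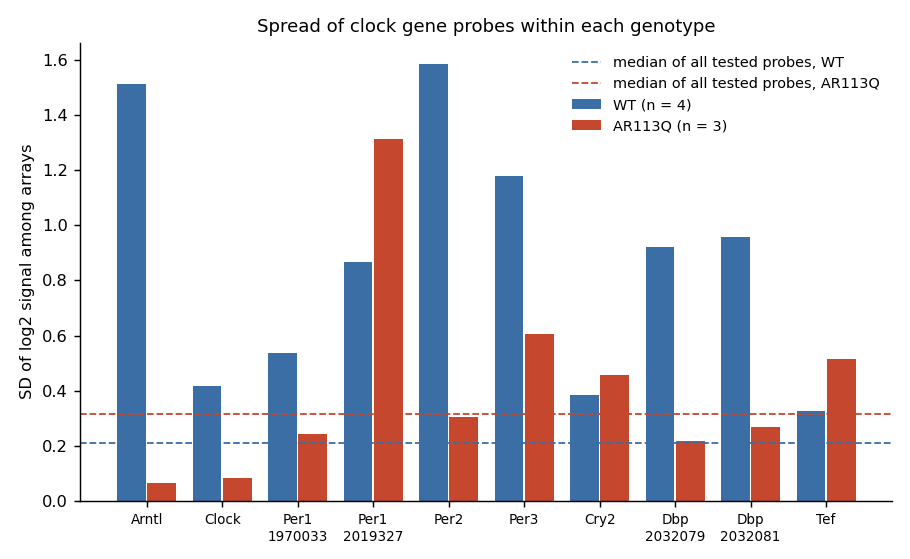
SD of the log2 signal (vertical axis, from 0) of the 10 tested clock gene probes among the 4 WT arrays (blue) and the 3 AR113Q arrays (red), with the probe number under genes that have 2 probes; dashed lines mark the median over all 20991 probes tested, 0.21 in WT and 0.32 in AR113Q. The WT bars of Arntl, Per2 and Per3 are above 1, that of Per3 through WT replicate 1 alone, and the AR113Q bars of Arntl and Clock are below both lines.

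The genes whose profiles were most like those of Arntl and Dbp were found by the root mean square difference between log2 profiles centred on their own means, over the 7 arrays and 13717 genes well above background on all of them. For Arntl they were Slc15a2, a peptide transporter gene (0.617), Pi4k2b, a lipid kinase gene (0.734), and the unnamed transcript TC1700876 (0.759). For Dbp they were Neat1, a nuclear noncoding RNA (0.531), Car3, the carbonic anhydrase of muscle and fat (0.536), and A430046D13Rik (0.660). Neat1 had a log2 signal of 14.19, 15.01, 14.69 and 14.28 in WT and 10.64, 11.65 and 11.36 in AR113Q, and thus had a log2 fold change of -3.32 and a narrower WT range than Dbp. A profile holds the difference between genotypes as well as the individual arrays, and this measure does not separate them.

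Other values moved with genotype beside those of the clock genes, and their part in the clock results was not tested. Of 14 glucocorticoid-induced genes tested, 7 rose and 0 fell, beside 11.2% and 13.1% of all genes. The log2 of their summed signal was 15.61 to 16.79 in WT and 17.96 to 18.32 in AR113Q. Mt1 and Mt2 made up 50.1% to 66.3% of the summed signal in AR113Q and 14.0% to 50.3% in WT. Without them the log2 of the sum was 15.39 to 16.44 in WT and 16.75 to 16.95 in AR113Q. The largest changes were those of Cdkn1a, a cell cycle inhibitor gene (log2 fold change 5.20), and the metallothionein genes Mt2 (3.99) and Mt1 (2.82). Of the 14 genes 13 had a log2 fold change above 0 and 1 below it, and 7 were not called. Among those not called were Glul (0.17), Tsc22d3 (0.16) and Sgk1 (-0.64). This list is given because Per1 is known to be induced by glucocorticoids. The counts of cell type markers that follow stand beside the same shares of all genes. Of 5 fibroblast markers 3 fell, and all 5 were above background. The log2 of their summed signal was 15.19 to 15.54 in WT and 12.17 to 13.83 in AR113Q. Of 5 adipocyte markers 3 fell, with a log2 of the summed signal of 15.81 to 16.55 in WT and 15.18 to 15.46 in AR113Q. Of 5 macrophage markers 1 rose and 2 fell, of 5 Schwann cell markers 2 fell and of 5 endothelial markers 1 fell, and 1 of 3 tested lymphocyte markers fell (the other 2 were at background), whereas 0 of 5 muscle fiber markers and 0 of 4 tested erythrocyte markers were called.

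**Figure D5:**
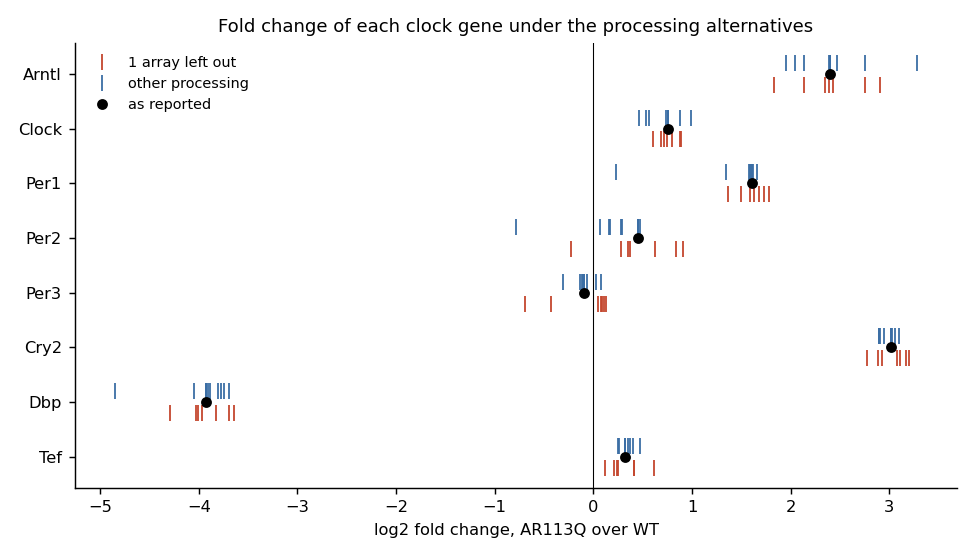
Log2 fold change of AR113Q over WT (horizontal axis) for each of the 8 tested clock genes as reported (black), with 1 array left out (red) and under the other processing alternatives (blue). Cry2, Arntl, Per1 and Clock stay above 0 and Dbp below it throughout, with Per1 at 0.22 when its probes are averaged, while the values of Per2 and Per3 fall on both sides of 0.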

How the data were processed

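Quadriceps RNA of 4 WT and 3 AR113Q mice was measured on 1-colour arrays, 1 array per mouse, and nothing was pooled. The authors extracted spots with Agilent Feature Extraction 10.7.3.1 (submitters' processing notes). The scanner files that the authors deposited hold a background-subtracted, detrended intensity per spot, not normalized between arrays. The deposited table of log2 values, quantile normalized per the study's methods, served as an alternative. Subtraction spreads the log2 values of dim spots.

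Here log2 intensities of 43020 non-control spots per array were quantile normalized without spots marked as outliers (94 to 151 per array), and spots of a probe were averaged. Probes had to be well above background on 3 or more of the 7 arrays. The fit used lmFit and eBayes of limma 3.58.1 under R 4.3.3, with Benjamini-Hochberg adjustment over all 20991 kept probes, and the kept probe of highest mean stood for its gene. The code was tested on simulated data. Symbols came from RefSeq accessions (GRCm38.p6; 28330 of 39429 probes), probe positions are on mm9. Figures were drawn with matplotlib 3.10.9.

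The clock genes, the lists and the tests were chosen with earlier results of these data known. Named were all clock genes, called genes of the other clock groups, Nr1d1 and Nr1d2, the 3 nearest profiles of Arntl and Dbp, and the 3 glucocorticoid-induced genes with the largest change. Glul, Tsc22d3 and Sgk1 were named after their values were seen. A few genes covered by the tests are counted but not reported here. Replicate numbers were not taken to pair the samples, as the deviations of same-numbered arrays correlated at 0.04, -0.02 and 0.16. Tried as alternatives were 75th percentile scaling, normexp, the authors' values, other filters and probe rules, outlier spots kept, an intensity trend, slide or replicate blocks, no fold change threshold and each array left out. Unsubtracted mean spot intensities, the WT SD with each WT array left out and the glucocorticoid sum without Mt1 and Mt2 were added on seeing the data.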

Additional observations from a re-analysis of the deposited data

Results flagged for a closer look

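The WT value of Per3 in replicate 1 stood apart from the other WT arrays. Its log2 signal was 3.40, where the other 3 WT arrays had 5.69, 5.73 and 5.84, and the gap took up 0.94 of the whole WT range, above Dixon's 95% critical value for 4 samples. This spot was also not well above background. Chance marks about 1 in 20 groups of values in this way, and 1 of 25 groups was marked here. Without WT replicate 1 the log2 fold change of Per3 was -0.69, with an adjusted p of 0.118 from limma.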

How the results depend on the processing

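The counts of 4 called clock genes and 10 called genes of the other clock groups stayed within 1.5 times these values under all alternatives but 1. A fixed slide effect rests the difference on the 2 arrays of slide 2 alone; there both counts were 0 in the limma fit, as was the count over all genes (6158 genes had an unadjusted p up to 0.05, among them 3 clock genes and 13 of the others). The smallest adjusted p among the clock genes was then 0.0529, for Cry2. Leaving out 1 array at a time gave counts of 3 to 4 and 9 to 12. The replicate block gave 4 and 11, and changed no call of a clock gene. The count over all genes, 4032, was 1763 with normexp, 1364 with the authors' values and 7214 without a fold change threshold. Directions turned only in genes that did not pass the test. For Per2 the log2 fold change was -0.79 with slide as a fixed effect and -0.23 without WT replicate 1 (leave-one-out range -0.23 to 0.91). For Per3 it was 0.028 with slide as a fixed effect and 0.076 with the replicate block (leave-one-out range -0.69 to 0.13). For Nr1d2 it was -0.026 with the replicate block (leave-one-out range -0.056 to 0.25). The cause was not tested. Per3 has no value where all 7 arrays had to be well above background. Low signal limits Per3, the dim Per1 probe, Npas2 and Cry1.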

Other observations

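Several clock-pathway genes had probes that differed in direction or call, and these were named after their values were seen. Rora, whose protein activates RORE elements, had probes with log2 fold changes of -1.63 (called, limma adjusted p = 0.000966) and 0.68 (not called). Btrc, a ubiquitin ligase adaptor for PER proteins, had 1.92 (called) and -0.61 (not called), and Cipc, an inhibitor of CLOCK, 1.02 (called) and 0.36 (not called). Which transcripts these probes measure was not tested.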
